A study of Mus musculus with 8 samples.

Results

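Immediate early genes are transcribed within minutes of a stimulus, without prior protein synthesis, and 10 of them were followed through mouse thyroid follicular cell organoids (TFCOs) and intact tissue. The members were fixed by symbol: FOS, FOSB, JUN, JUNB, JUND, EGR1, ATF3, IER2, DUSP1 and KLF4. All 10 were among the 16119 genes of the count table, and all 10 were among the 14703 genes tested, which reached 10 normalized counts in at least 2 libraries. The question was how these genes of handling and stimulation stood in culture against tissue.

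The data were 8 bulk RNA sequencing libraries of untreated wild-type mice of strain C57BL/6, whose age was not given. Organoid lines mThy14 and mThy16 were each sequenced in early and in late passage, which gave 2 early and 2 late TFCO libraries. Thyroid tissue and lung tissue had 2 libraries each, described as biological replicates with no word on the animals. Each organoid line came from 1 mouse thyroid, so passages of a line were averaged before TFCOs were compared with tissue. The p-values of these comparisons rest on 1 spread pooled over the 2 lines, 2 thyroid tissues and 2 lung tissues. That spread includes the difference between thyroid tissues 1 and 2, which fell into different sets of libraries, as given below. The thyroids for culture were minced, digested with collagenase in the presence of a ROCK inhibitor, and grown in basement membrane extract. This digestion belonged to the start of the cultures, and the authors describe mechanical passaging of the organoids thereafter. The main text of the paper does not give the time from the last split or medium change to RNA extraction. The culture medium held EGF, FGF10, R-spondin 3, the TGF-beta receptor inhibitor A83-01 and forskolin, which raises cAMP. The tissue libraries came from organs that had not been in this medium. A library held 9755081 to 16904865 reads on genes. The labels name no batch, but the libraries fell into sets. The 4 TFCO libraries and thyroid tissue 1 stood apart from thyroid tissue 2 and both lung tissues, with 44 genes at 0 in the latter 3 libraries and at 50 or more in each of the former 5, and 16 genes the other way round. How tissue was kept before RNA extraction was not stated in the sources used here.

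FOS and JUN family proteins pair to form AP-1, a transcription factor that reads out growth factor, cAMP and stress signals. EGR1, ATF3, KLF4 and IER2 encode further nuclear factors of the same fast response, and DUSP1 encodes a phosphatase that switches MAP kinases off again. The transcripts are short-lived, so their level follows recent signalling. Cutting and enzymatic digestion of tissue are known to raise many of them, and in thyroid cells both EGF and TSH, which acts through cAMP, are known inducers of FOS.

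Because forskolin in the medium raises cAMP, the bases just before the start of transcription were searched for the sites read by the cAMP-responsive factor CREB. Windows of 250 bases upstream of the RefSeq start (build GRCm38.p6) were used for 8 members. EGR1 and IER2 were not searched. Both strands were searched for the full cAMP response element TGACGTCA and for its short form TGACG, which on the other strand reads CGTCA and is part of the full element. The windows of FOS (chr12:85473640-85473889, plus strand), FOSB (chr7:19310046-19310295, minus strand), JUN (chr4:95052223-95052472, minus strand) and JUNB (chr8:84978749-84978998, minus strand) are shown because the culture and tissue values of these relatives are set against each other below, and that of DUSP1 (chr17:26508473-26508722, minus strand) because it alone of the 8 held the full element. Each reads from 5′ to 3′ toward the start, with the matched motifs in capitals.
FOS: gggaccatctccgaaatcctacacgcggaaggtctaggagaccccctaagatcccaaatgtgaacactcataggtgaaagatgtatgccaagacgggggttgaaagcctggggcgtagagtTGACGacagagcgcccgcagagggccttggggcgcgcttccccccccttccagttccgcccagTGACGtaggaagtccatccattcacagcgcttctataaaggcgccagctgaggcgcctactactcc
FOSB: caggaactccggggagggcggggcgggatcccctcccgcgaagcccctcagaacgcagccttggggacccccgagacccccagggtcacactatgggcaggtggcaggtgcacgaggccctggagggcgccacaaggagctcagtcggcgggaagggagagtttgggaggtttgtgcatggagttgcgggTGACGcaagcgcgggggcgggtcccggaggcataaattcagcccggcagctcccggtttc
JUN: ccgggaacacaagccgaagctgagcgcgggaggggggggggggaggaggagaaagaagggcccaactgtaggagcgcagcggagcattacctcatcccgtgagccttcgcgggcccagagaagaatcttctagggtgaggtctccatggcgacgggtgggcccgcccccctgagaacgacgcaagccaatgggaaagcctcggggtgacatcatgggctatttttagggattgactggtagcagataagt
JUNB: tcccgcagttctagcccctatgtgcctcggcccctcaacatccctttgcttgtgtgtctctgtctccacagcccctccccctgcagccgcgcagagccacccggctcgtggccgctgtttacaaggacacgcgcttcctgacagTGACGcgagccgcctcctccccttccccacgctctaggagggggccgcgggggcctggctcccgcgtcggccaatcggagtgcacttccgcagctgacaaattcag
DUSP1: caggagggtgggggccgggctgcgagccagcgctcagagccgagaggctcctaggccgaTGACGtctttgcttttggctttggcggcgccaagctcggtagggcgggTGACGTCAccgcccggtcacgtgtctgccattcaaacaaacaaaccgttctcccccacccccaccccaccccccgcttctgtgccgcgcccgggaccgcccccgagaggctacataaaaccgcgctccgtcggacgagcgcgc

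The short form stood in 6 of the 8 windows: at positions -129 and -66 in FOS, -60 in FOSB, -106 in JUNB, -7 in ATF3, -232 in KLF4, and -191, -143 and -140 in DUSP1, counted from the start to the first base of the match. JUN held neither form in this window, and neither did the window of JUND (chr8:70697489-70697738, plus strand). The JUND window lies upstream of and does not adjoin the GENCODE M21 start of JUND given below. The windows of DUSP1 and ATF3 (chr1:191183334-191183583, minus strand) lie inside the GENCODE M21 spans given below and do not adjoin the outermost starts of these genes. Of 32851 mouse promoter windows of the same length, 17.77% held the short form and 1.546% the full element, which DUSP1 carried at position -143. The AP-1 site itself, TGACTCA or its reverse TGAGTCA, stood in 4.463% of all windows and the CArG box of serum response factor in 1.467%. Neither was found as an exact match in the 8 windows of members. Variant sites and sites farther from the start were not searched. All matches given here describe letters, not binding.

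The AP-1 members had no common direction in culture. FOSB was lower in TFCOs than in thyroid tissue by 7.13-fold, and it was the member that passed the test there. FOS, its close relative, overlapped between the groups. JUN lay lower in every TFCO library than in every tissue, and JUNB lay higher in TFCOs than in thyroid tissue, yet neither passed the test. All values below are normalized counts, that is, read counts divided by a size factor of the library, and they compare a gene between libraries but not genes with each other.

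**Figure D1:**
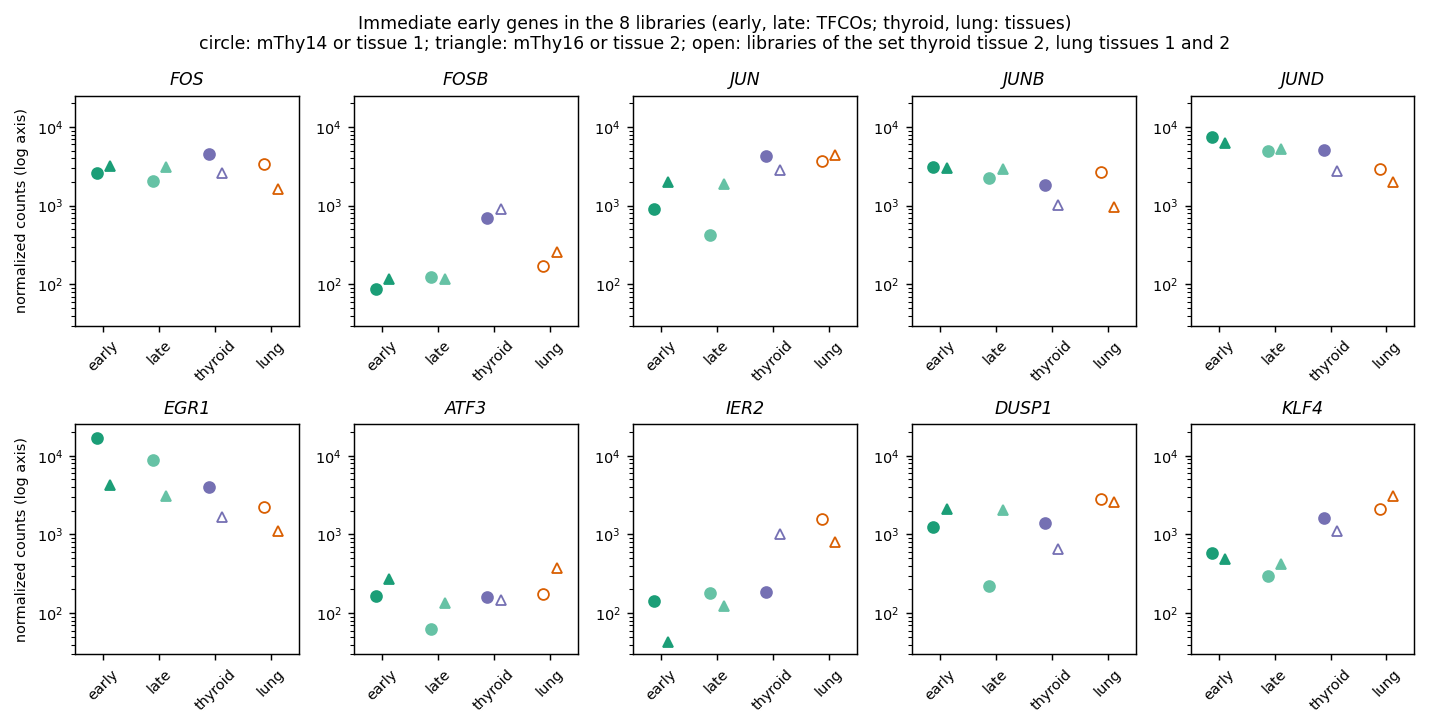
Normalized counts (log axis) of the 10 immediate early genes in early and late TFCOs, thyroid tissue and lung tissue, 1 point per library, with open symbols for thyroid tissue 2 and both lung tissues. FOSB, JUN, IER2 and KLF4 lie lower in all 4 TFCO libraries than in all 4 tissues. For IER2 the gap is narrow, from 182.1 in late mThy14 to 184.0 in thyroid tissue 1. EGR1 is highest in early mThy14 at 16970, and DUSP1 drops to 222.7 in late mThy14 alone.

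FOS (chr12:85473890-85477273, plus strand, GENCODE M21 on GRCm38, as for all gene coordinates here) measured 2582 in early mThy14, 3235 in early mThy16, 2063 in late mThy14 and 3133 in late mThy16. It measured 4510 and 2610 in thyroid tissues 1 and 2, with 3335 and 1611 in lung tissues 1 and 2. The groups overlapped throughout, and thyroid tissue 1 was highest. The log2 difference of TFCOs from thyroid tissue was -0.34 (SE 0.49, 95% interval -1.50 to 0.82, limma adjusted p = 0.709) and from lung tissue 0.23 (SE 0.49, adjusted p = 0.742).

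FOSB (chr7:19302696-19310051, minus strand) encodes a partner of the JUN proteins. It measured 88.5 and 118 in early mThy14 and mThy16, 125.9 and 118 in the late libraries, 708 and 911 in thyroid tissues 1 and 2, with 169 and 261 in lung tissues 1 and 2. The 4 TFCO libraries lay close together and under every tissue, and thyroid stood above lung. FOSB fell by 2.83 on the log2 scale in TFCOs against thyroid tissue (SE 0.44, 95% interval -3.88 to -1.79, adjusted p = 0.0201). Against lung tissue the difference was -0.91 (SE 0.44, adjusted p = 0.156), and against the mean of both tissues FOSB was 3.66-fold lower (log2 -1.87, SE 0.38, adjusted p = 0.0276). The log2 difference from thyroid tissue 1 alone was -2.65 and from thyroid tissue 2 alone -3.02.

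The FOSB call against thyroid tissue was lost without thyroid tissue 2 (adjusted p = 0.0731), without lung tissue 1 (0.0647) and without lung tissue 2 (0.0705), where the single remaining tissue was taken to vary like the other groups, in a range of 0.0137 to 0.0731 over all alternatives. The call against the mean of both tissues was lost without lung tissue 1 (0.0881), without lung tissue 2 (0.134) and under quantile normalization (0.0887), in a range of 0.0116 to 0.134, while the sign stayed negative under each alternative run.

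JUN (chr4:95049034-95052222, minus strand) encodes the JUN subunit most tied to stress and growth signals. It measured 914 in early mThy14, 1979 in early mThy16, 420 in late mThy14 and 1879 in late mThy16. It measured 4334 and 2810 in thyroid tissues 1 and 2, with 3647 and 4379 in lung tissues 1 and 2. Every TFCO library lay under every tissue, and mThy14 lay under mThy16 at both passages. The log2 difference was -1.67 from thyroid tissue (SE 0.57, 95% interval -3.02 to -0.33, adjusted p = 0.182), -1.87 from lung tissue (SE 0.57, adjusted p = 0.0531) and -1.77 from their mean (SE 0.49, adjusted p = 0.061), so JUN missed the threshold of 0.05 in each. It passed against lung tissue without thyroid tissue 1 (adjusted p = 0.0463), without thyroid tissue 2 (0.0469) and under quantile normalization (0.0347), in a range of 0.0347 to 0.227, and against the mean of both tissues under quantile normalization (0.0395, range 0.0395 to 0.179).

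JUNB (chr8:84974484-84978718, minus strand), which often opposes JUN in growth control, measured 3081 and 2992 in early mThy14 and mThy16, 2261 and 2939 in the late libraries, 1814 and 1029 in thyroid tissues 1 and 2, with 2649 and 969 in lung tissues 1 and 2. Each TFCO library exceeded both thyroid tissues, and lung tissue 1 lay within the TFCO range. The log2 difference from thyroid tissue was 1.03 (SE 0.54, 95% interval -0.25 to 2.31, adjusted p = 0.348), and the difference from thyroid tissue 1 alone was 0.62.

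JUND (chr8:70698949-70700616, plus strand), the JUN gene that cells express most steadily, measured 7491 and 6289 in early mThy14 and mThy16, 4938 and 5304 in the late libraries, 5038 and 2764 in thyroid tissues 1 and 2, with 2924 and 2007 in lung tissues 1 and 2. Thyroid tissue 1 lay within the TFCO range, and the other 3 tissues lay under it. The log2 difference was 0.67 from thyroid tissue (SE 0.44, adjusted p = 0.422) and 1.29 from lung tissue (SE 0.44, adjusted p = 0.0694). Against lung tissue JUND passed without thyroid tissue 1 (0.0223), without thyroid tissue 2 (0.0218) and with limma voom on read counts recovered from the values (0.049), and against the mean of both tissues without thyroid tissue 1 (0.0245). The adjusted p over all alternatives ran from 0.0218 to 0.338 against lung tissue and from 0.0245 to 0.318 against the mean.

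Set against each other within a library, the JUN genes changed place. On normalized counts per kilobase of exon, JUN made up 4.42%, 10.3%, 3.04% and 10.9% of the summed level of JUN, JUNB and JUND in early mThy14 and mThy16 and in late mThy14 and mThy16, in that order. It made up 25.2% and 28.4% in thyroid tissues 1 and 2, with 26.2% and 44.1% in lung tissues 1 and 2. The ratio of JUN to JUNB ran from 0.105 to 0.375 over the TFCO libraries and from 0.781 to 2.56 over the tissues, so the ranges were apart, in thyroid tissue 1 (1.36) as in the others. JUND was the largest share in 7 of the 8 libraries, at 59.0% to 69.3% in TFCOs, 56.1% and 53.3% in thyroid tissues and 40.2% and 38.7% in lung tissues, where JUN at 44.1% exceeded it in lung tissue 2. These shares are a description and were not tested.

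**Figure D2:**
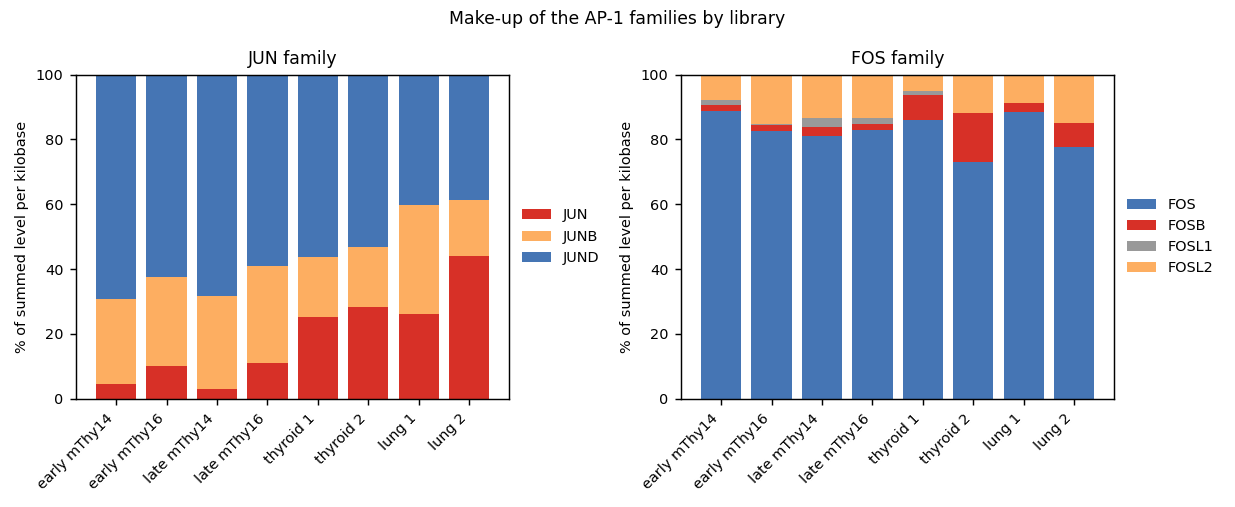
Share of each gene in the summed level per kilobase of the JUN family (left) and the FOS family (right), in percent, 1 bar per library. JUN takes 3.04% to 10.9% of its family in TFCOs and 25.2% to 44.1% in tissues, and FOSB takes 7.89% and 14.9% of its family in thyroid tissues.

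In the FOS family, FOS itself held 81.0% to 88.8% of the level per kilobase of FOS, FOSB, FOSL1 and FOSL2 in TFCOs and 73.1% to 88.5% in tissues. FOSB held 1.76% to 2.90% in TFCOs, 7.89% and 14.9% in thyroid tissues 1 and 2, with 2.63% and 7.37% in lung tissues 1 and 2. FOS was thus the main FOS family transcript in all 8 libraries, and the TFCO and thyroid ranges of the FOSB share did not overlap.

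EGR1 (chr18:34859823-34864984, plus strand), a zinc finger factor downstream of ERK, measured 16970 in early mThy14, 4280 in early mThy16, 8943 in late mThy14 and 3066 in late mThy16. It measured 4061 and 1666 in thyroid tissues 1 and 2, with 2208 and 1114 in lung tissues 1 and 2. Late mThy16 lay under thyroid tissue 1, and the other TFCO libraries lay above all tissues. EGR1 also separated the lines, with mThy14 above mThy16 by 1.99 on the log2 scale in early and 1.54 in late passage. The log2 difference of TFCOs was 1.36 from thyroid tissue (SE 0.72, 95% interval -0.33 to 3.05, adjusted p = 0.348) and 2.09 from lung tissue (SE 0.72, adjusted p = 0.0703), and neither passed.

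KLF4 (chr4:55527143-55532466, minus strand), a Kruppel-like factor of epithelial differentiation and growth arrest, measured 582 and 483 in early mThy14 and mThy16, 292 and 426 in the late libraries, 1596 and 1122 in thyroid tissues 1 and 2, with 2087 and 3118 in lung tissues 1 and 2. Every TFCO library lay under every tissue. KLF4 was 5.89-fold lower in TFCOs than in lung tissue (log2 -2.56, SE 0.37, adjusted p = 0.00659) and 4.26-fold lower than in the mean of both tissues (log2 -2.09, SE 0.32, adjusted p = 0.0111). Against thyroid tissue the log2 difference was -1.63 (SE 0.37, 95% interval -2.50 to -0.76, adjusted p = 0.066), which missed the threshold, with -1.88 from thyroid tissue 1 alone and -1.37 from thyroid tissue 2 alone.

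The KLF4 call against lung tissue was lost without lung tissue 1 (adjusted p = 0.0501) and without lung tissue 2 (0.0906), in a range of 0.00349 to 0.0906, and the call against the mean was lost without lung tissue 2 (0.0674, range 0.00608 to 0.0674). Against thyroid tissue KLF4 passed without thyroid tissue 1 (0.0474, range 0.0474 to 0.162).

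IER2 (chr8:84661331-84662852, minus strand), a small nuclear protein of the early growth response, measured 145 and 43.6 in early mThy14 and mThy16, 182 and 125 in the late libraries, 184 and 1023 in thyroid tissues 1 and 2, with 1590 and 812 in lung tissues 1 and 2. Thyroid tissue 1 stood next to the TFCOs and thyroid tissue 2 next to the lung. IER2 was 10.3-fold lower in TFCOs than in lung tissue (log2 -3.36, SE 0.84, adjusted p = 0.0344), and the log2 difference from thyroid tissue was -1.98 (SE 0.84, 95% interval -3.97 to 0.015, adjusted p = 0.271). From thyroid tissue 1 alone it was -0.74 and from thyroid tissue 2 alone -3.21. The call against lung tissue was lost without lung tissue 1 (0.198) and without lung tissue 2 (0.135), in a range of 0.00727 to 0.198. IER2 passed against thyroid tissue without thyroid tissue 1 (0.0252, range 0.0252 to 0.65), and against the mean of both tissues without thyroid tissue 1 (0.00728) and without thyroid tissue 2 (0.0491), in a range of 0.00728 to 0.185.

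The position of IER2 followed the split of the libraries given at the start. Of the members, 3 did not overlap between these sets of libraries, against 43.61% of the genes tested: IER2 was lower, and JUND and EGR1 were higher, in the set that holds the TFCOs. Since the lung libraries belong to the set without TFCOs, tissue and set cannot be told apart for TFCOs against lung tissue. Within the TFCO set, the log2 difference from thyroid tissue 1 alone was -2.65 for FOSB, -1.99 for JUN and -1.88 for KLF4, and it was 0.23 for JUND, 0.72 for EGR1 and -0.74 for IER2.

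ATF3 (chr1:191170296-191218039, minus strand), a stress-induced factor that can repress its targets, measured 166 and 272 in early mThy14 and mThy16, 63.5 and 134 in the late libraries, 162 and 147 in thyroid tissues 1 and 2, with 173 and 378 in lung tissues 1 and 2. The groups overlapped. The log2 difference was -0.14 from thyroid tissue (SE 0.60, 95% interval -1.55 to 1.28, adjusted p = 0.912) and -0.86 from lung tissue (SE 0.60, adjusted p = 0.291).

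DUSP1 (chr17:26505590-26562128, minus strand) measured 1242 in early mThy14, 2076 in early mThy16, 223 in late mThy14 and 2031 in late mThy16. It measured 1380 and 657 in thyroid tissues 1 and 2, with 2793 and 2602 in lung tissues 1 and 2. Both lung tissues lay above all other libraries, and late mThy14 lay under all others. The log2 difference was 0.13 from thyroid tissue (SE 0.67, 95% interval -1.45 to 1.70, adjusted p = 0.928) and -1.37 from lung tissue (SE 0.67, adjusted p = 0.153).

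**Figure D3:**
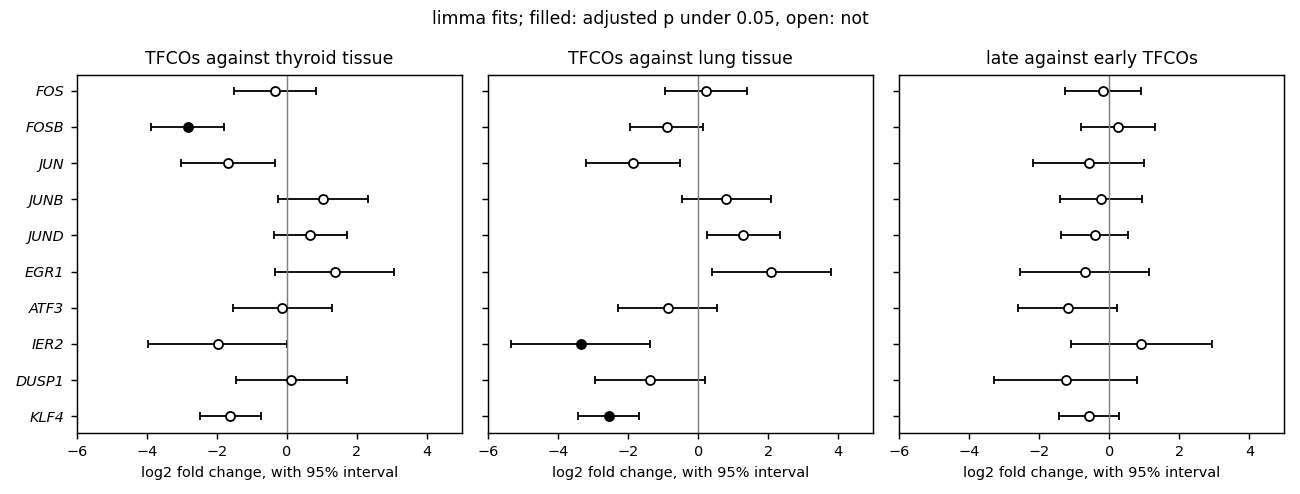
log2 fold change with its 95% interval for each immediate early gene in 3 comparisons, with filled points where the limma adjusted p was under 0.05. FOSB against thyroid tissue (-2.83) and KLF4 (-2.56) and IER2 (-3.36) against lung tissue are filled, and no point is filled for late against early TFCOs.

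Counted over the members, 1 of 10 passed in TFCOs against thyroid tissue, where 3.65% of all genes tested did (88 higher and 448 lower). Against lung tissue 2 of 10 passed, beside 23.4% of all genes, and against the mean of both tissues 2 of 10, FOSB and KLF4, beside 11.4%. The median log2 difference of the members was -0.24 from thyroid tissue, -0.89 from lung tissue and -0.56 from their mean, beside 0.05, 0.05 and 0.03 over all genes tested. These 3 comparisons share the TFCO libraries. The libraries of 5 members did not overlap between the 4 TFCOs and the 2 thyroid tissues, with FOSB, JUN, IER2 and KLF4 lower and JUNB higher in TFCOs, against 34.5% of all genes. Between the 4 TFCOs and all 4 tissues, 4 members did not overlap, the same without JUNB, against 24.9%. For IER2 the gap was narrow in both counts, with 182.1 in late mThy14 (175 reads) and 184.0 in thyroid tissue 1 (169 reads).

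Thyroid and lung tissue were compared because both were taken from the animal without culture. None of the 10 members passed in limma, 2 had an unadjusted p under 0.05 (FOSB and KLF4), and 6.05% of all genes tested passed. FOSB came nearest, 3.81-fold higher in thyroid (log2 1.93, SE 0.44, adjusted p = 0.0525), and the difference of thyroid tissue 2 from lung, within the same set of libraries, was 2.11. It passed with a pseudocount of 10 (0.048), under quantile normalization (0.0293) and without thyroid tissue 2 (0.047), where IER2 also passed (0.0425), in a range of 0.0293 to 0.373 for FOSB and 0.0425 to 0.97 for IER2. DUSP1 and KLF4 lay higher in both lung tissues than in both thyroid tissues, with log2 differences of thyroid from lung of -1.50 (SE 0.67, adjusted p = 0.241) and -0.93 (SE 0.37, adjusted p = 0.193).

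Whole tissue can hold other cell types than TFCOs, and markers of these moved with the comparison. All 5 endothelial markers were higher in every tissue than in every TFCO library, with summed normalized counts of 179.9 to 519.4 in TFCOs, 2551 and 6391 in thyroid tissues 1 and 2, with 23400 and 43320 in lung tissues. All 5 fibroblast markers did the same, from 75.98 to 223.5 in TFCOs to 17110 to 28590 in the 4 tissues, with LUM at 0 in all TFCOs. Of the leukocyte markers 2 of 5 did so, with sums of 39.35 to 67.34 in TFCOs and 704.3 to 4949 in tissues. Mural markers (2 of 4) summed to 1473 to 2279 in TFCOs and 2102 to 6065 in tissues, and adipocyte markers (1 of 4) to 16.65 to 50.6 and 202.2 to 2593. Skeletal muscle markers reached 38660 and 117200 in thyroid tissues, 1872 to 2509 in TFCOs and 191 to 492.7 in lung tissues. ACTA1 made up most of the TFCO sums, at 1796 to 2442. CKM, MYH4 and TNNT3 each stayed at or under 40.6 in TFCOs, and CKM was higher in lung tissues (175.1 and 391.6). The part of these cells in the lower FOSB, JUN, KLF4 and IER2 of the TFCOs was not tested. In bulk RNA, fewer cells of a type and less RNA of the gene per cell cannot be told apart. The labels held for the organs: the summed thyroid follicular markers were 1551000 and 2215000 in thyroid tissues, 19930 to 165900 in TFCOs and 1991 and 2932 in lung tissues, and the summed lung epithelial markers were highest in lung tissues, at 465700 and 964000.

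Passage was the other comparison within culture. In limma, 0 of the 10 members and 0% of the genes tested passed between late and early TFCOs. At an unadjusted p under 0.05 there were 0 members and 166 genes (1.13% of those tested), and limma voom on reads also called 0. The limma fit did not pair the passages of a line, so the difference between the lines stayed in its error. With the line as block, 0 genes were called as well. The absence of calls therefore does not show equal levels. Of the members, 8 were lower at late passage in both lines, where 26.7% of the genes tested were, and FOSB and IER2 were higher in both, where 25.04% were. In mThy16 the differences of FOS, JUN, JUNB and DUSP1 were small (-0.05, -0.07, -0.03 and -0.03), and leaving out 1 library turned the sign of DUSP1, EGR1, FOS and JUN over both lines. The median late minus early difference of the members was -0.76 on the log2 scale in mThy14 and -0.06 in mThy16, beside -0.04 and 0.01 over all genes tested.

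The lower values gathered in late mThy14. It held the lowest TFCO value of 7 of the 10 members, FOS, JUN, JUNB, JUND, ATF3, DUSP1 and KLF4, while 26.59% of the genes tested were lowest there. DUSP1 differed between passages by -2.47 in mThy14 and by -0.03 in mThy16, and JUN by -1.12 and -0.07. ATF3 differed by -1.37 and -1.02, and over both lines by -1.19 (SE 0.62, 95% interval -2.62 to 0.23, adjusted p = 1). With 1 library per line and passage, a difference between the lines could not be set against replicate spread.

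Between the lines, JUN was lower in mThy14 than in mThy16 by log2 differences of -1.11 in early and -2.16 in late passage, and ATF3 by -0.71 and -1.07. DUSP1 differed by -0.74 and -3.18. EGR1 ran the other way, as given above, and IER2 was 1.71 and 0.54 higher in mThy14. In all, 3 members (FOS, JUN and DUSP1) lay lower in both mThy14 libraries than in both mThy16 libraries, where 26.42% of the genes tested did, and 2 (EGR1 and IER2) lay higher, where 29.1% did.

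The scale of counts per kilobase allows genes to be ranked within a library, here among the genes tested that also had a known length. JUND stood in the top 1.53% to 2.25% in TFCOs and in the top 1.79% to 4.64% in tissues. FOS stood in the top 4.41% to 8.37% in TFCOs and 2.78% to 8.30% in tissues, and JUNB in the top 4.02% to 6.51% and 4.31% to 12.7%. EGR1 ranged from the top 1.52% to 9.09% in TFCOs and from 6.49% to 23.7% in tissues. JUN went from the top 12.1% to 38.0% in TFCOs to 4.07% to 6.91% in tissues, and KLF4 from 30.5% to 43.0% to 5.63% to 18.6%. FOSB, at the top 57.5% to 64.3%, ranked low in TFCOs, and stood between the top 26.2% and 65.4% in tissues.

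Beyond the members, lists of genes from the same response were followed. Among 20 other early transcription factors, CEBPD and MYC rose and ID3 and KLF2 fell in TFCOs against thyroid tissue, and the median log2 difference of the list was 0.59. MYC, a driver of growth, measured 1172 to 1983 in the TFCO libraries, 440 and 182 in thyroid tissues 1 and 2, with 117 and 79.5 in lung tissues (log2 2.52 against thyroid tissue, SE 0.52, adjusted p = 0.0494). CEBPD, a C/EBP factor of the acute response, measured 2261 to 4709 in TFCOs, 366 and 382 in thyroid tissues, with 758 and 922 in lung tissues (log2 2.91, SE 0.34, adjusted p = 0.00825). Both factors stood above every tissue in every TFCO library. The call of CEBPD held under all 13 alternatives, and that of MYC was lost under 8 of 13 against thyroid tissue (adjusted p 0.0103 to 0.118) and under none against the mean of both tissues (0.00242 to 0.0422).

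ID3, an inhibitor of helix-loop-helix factors, measured 25.0 to 97.0 in TFCOs, 2185 and 3250 in thyroid tissues, with 2537 and 1974 in lung tissues, and was 47.8-fold lower in TFCOs than in thyroid tissue (SE 0.37 on the log2 scale, adjusted p = 0.00151). KLF2, a relative of KLF4 that is prominent in endothelium, measured 72.7 to 198 in TFCOs, 452 and 887 in thyroid tissues, with 2768 and 2219 in lung tissues (log2 -2.32, SE 0.46, adjusted p = 0.0433). NR4A2, a nuclear receptor of the early response, passed against the mean of both tissues (log2 2.35, SE 0.59, adjusted p = 0.0475) and measured 929 to 2614 in TFCOs, 1041 and 427 in thyroid tissues, with 82.9 and 203 in lung tissues. In thyroid tissue 1 NR4A2 lay within the TFCO range. The call of ID3 held under all 13 alternatives, while that of KLF2 against thyroid tissue was lost under 7 (adjusted p 0.0122 to 0.138) and that of NR4A2 under 7 (0.0197 to 0.145).

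**Figure D4:**
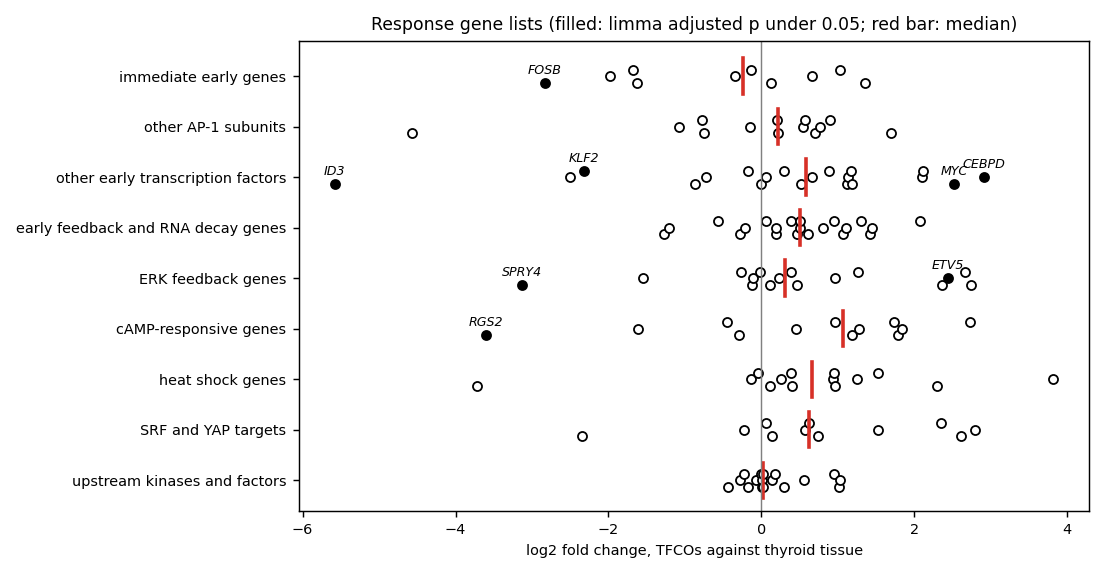
log2 fold change of TFCOs against thyroid tissue for the immediate early genes and 8 further lists, 1 point per gene, filled where the limma adjusted p was under 0.05, with the median of each list as a red bar. Filled points lie on both sides of 0: CEBPD, MYC and ETV5 to the right, and FOSB, ID3, KLF2, SPRY4 and RGS2 to the left.

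The ERK feedback list, genes that ERK switches on and that mostly restrain it, went both ways. Of 16 genes, 1 passed as higher and 1 as lower against thyroid tissue, with a median of 0.31. ETV5, an ETS factor downstream of FGF signalling, rose, with 3111 to 4649 in TFCOs, 830 and 587 in thyroid tissues, with 2748 and 1798 in lung tissues (log2 2.44, SE 0.37, adjusted p = 0.0189). SPRY4, an inhibitor of receptor tyrosine kinase signalling, fell, with 7.29 to 42.2 in TFCOs, 132 and 251 in thyroid tissues, with 272 and 492 in lung tissues (log2 -3.13, SE 0.65, adjusted p = 0.0496). ETV4 and PHLDA1 also passed as higher against the mean of both tissues (adjusted p = 0.0395 and 0.0313). Against thyroid tissue the call of SPRY4 was lost under 11 of 13 alternatives (adjusted p 0.0168 to 0.173), and that of ETV5 without thyroid tissue 2 (0.0699), without lung tissue 1 (0.0619) and without lung tissue 2 (0.0643), in a range of 0.0109 to 0.0699. Those of ETV4 and PHLDA1 were lost without either lung tissue (adjusted p 0.0891 to 0.135), and that of ETV4 also without early mThy14 (0.0816).

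Of 12 cAMP-responsive genes none passed as higher and RGS2 passed as lower against thyroid tissue, while the median log2 difference of the list was 1.07. RGS2, a regulator of G protein signalling, measured 10.4 to 71.7 in TFCOs, 528 and 449 in thyroid tissues, with 1189 and 883 in lung tissues, 12.1-fold lower in TFCOs than in thyroid tissue (SE 0.49 on the log2 scale, adjusted p = 0.0133). The single call and the median of this list had opposite signs. The RGS2 call was lost without thyroid tissue 2 (adjusted p = 0.0584), without lung tissue 1 (0.0626) and without lung tissue 2 (0.063), in a range of 0.0101 to 0.063.

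Among 13 further AP-1 subunits none passed against thyroid tissue (median 0.21), and against the mean of both tissues BATF, a partner of JUN in lymphocytes, fell (adjusted p = 0.0262), with 0 to 18.3 in TFCOs and 67.8 to 96.8 in tissues. Of 11 targets of SRF and YAP none passed against thyroid tissue (median 0.62), while CCN2 rose and TAGLN fell against the mean of both (adjusted p = 0.0115 and 0.00738). CCN2, a matricellular protein and YAP target, measured 25690 to 71830 in TFCOs, 5531 and 6748 in thyroid tissues, with 2336 and 3880 in lung tissues. TAGLN, a smooth muscle actin-binding protein, measured 26.0 to 59.0 in TFCOs, 126.3 and 303 in thyroid tissues, with 1248 and 3001 in lung tissues. Against thyroid tissue, BATF (log2 -4.57, SE 1.01, adjusted p = 0.061) passed with a pseudocount of 10 (0.046), without early mThy14 (0.0337) and without thyroid tissue 1 (0.037), in a range of 0.0337 to 0.191. CCN2 (log2 2.79, SE 0.59, adjusted p = 0.0539) passed under 5 of 13 alternatives (adjusted p 0.0422 to 0.0485, in a range of 0.0422 to 0.19), among them without late mThy16 (0.0452) and without thyroid tissue 1 (0.0434), and TAGLN (log2 -2.35, SE 0.63, adjusted p = 0.103) passed without thyroid tissue 1 (0.0256, range 0.0256 to 0.258). The 3 calls against the mean of both tissues were lost without lung tissue 2 (adjusted p = 0.126 for BATF, 0.066 for CCN2 and 0.0544 for TAGLN), those of BATF and CCN2 also without lung tissue 1 (0.121 and 0.0881), and that of BATF without late mThy14 (0.0591).

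None of 21 early feedback and RNA decay genes (median 0.50), none of 14 heat shock genes (median 0.67) and none of 17 upstream kinases and factors (median 0.02) passed against thyroid tissue or against the mean of both. MAPK3, the kinase ERK1, had a log2 difference from thyroid tissue of 0.02 (SE 0.48, adjusted p = 0.986). ZFP36L1 and BTG1, the most abundant of the feedback and decay genes, had differences of 0.95 (SE 0.60, adjusted p = 0.404) and 1.30 (SE 0.51, adjusted p = 0.236), and both passed without thyroid tissue 1 (0.0204 and 0.0222). Without thyroid tissue 2, which belongs to the set without TFCOs, their differences were 0.10 (adjusted p = 0.924) and 0.63 (adjusted p = 0.486), and the adjusted p over all alternatives ran from 0.0204 to 0.924 and from 0.0222 to 0.486.

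Heat shock genes, which also respond to handling, include some that followed the sets of libraries. HSPA1A, named after its values were seen and close to identical with HSPA1B, measured 3822 to 5319 in the TFCOs and thyroid tissue 1, and 166, 76.2 and 793 in thyroid tissue 2 and lung tissues 1 and 2. HSPA8, a constitutive chaperone, measured 29020 to 39870 and 7941 to 19180 in these sets. For these genes, culture against tissue cannot be told apart from the sets when both thyroid tissues are pooled, and HSPA1A in thyroid tissue 1 (5150) lay inside the TFCO range. HSPB1, a small heat shock protein also named after its values were seen, did not follow the sets, with 29.5, 265.4, 6.25 and 269.4 in early mThy14, early mThy16, then late mThy14 and mThy16, against 953.6 and 726.5 in thyroid tissues 1 and 2, with 938.1 and 1612 in lung tissues 1 and 2. Every TFCO library lay under every tissue, and the log2 difference was -3.72 from thyroid tissue (SE 1.19, adjusted p = 0.158) and -4.28 from lung tissue (SE 1.19, adjusted p = 0.0429). The call against lung tissue was lost without early mThy14 (0.0543), without thyroid tissue 1 (0.0515) or 2 (0.0524), and without lung tissue 1 (0.169) or 2 (0.201), in a range of 0.0302 to 0.201.

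The genes whose course over the 8 libraries was most like the members' mean course included GLUL, TNFSF12, ENPP2 and ALKBH4, of 11544 genes compared. Pearson's r was 0.98, 0.98, 0.96 and 0.96 over 8 libraries that share lines, organs and sets, and is given as a description. The members' mean course, centred on the log2 scale, was -0.79 in late mThy14, -0.21 to -0.05 in the other TFCOs, and 0.08 to 0.48 in the tissues. The members did not share this course. Between pairs of members, Pearson's r ran from -0.86 (JUND and IER2) to 0.87 (JUND and EGR1), so likeness to the mean is not likeness to each member. GLUL, which encodes glutamine synthetase, measured 206 in late mThy14, 1217 to 1691 in the other TFCOs, and 3217 to 7587 in the tissues.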

How the data were processed

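RNA of 8 mouse libraries was analysed: TFCOs of line mThy14 and of line mThy16 in early and late passage, thyroid tissues 1 and 2, and lung tissues 1 and 2, grouped by their titles. The authors deposited 1 signal table of normalized counts, that is, read counts per gene divided by a size factor per library with DESeq2. The methods describe polyA-enriched RNA prepared with a stranded kit and paired reads mapped to the mouse genome, while the labels describe an adapted CEL-Seq protocol. The submitters' processing notes list BWA 0.6.2-r126 and the builds hg38 and mm10 without their role. The gene annotation and the counting tool are not given in the sources used here, and neither is the use of strand. Values per kilobase used GENCODE M21 exon lengths (15603 of 16119 genes) and are approximate, since the protocol decides whether reads scale with length.

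The deposited values were whole multiples of 1 step per library (100% of values, within 0.01 of a whole number), which gives 9755081 to 16904865 reads on genes per library. A member had 44 to 12077 reads in a library, so the precision is set mainly by the 2 units per group. The test was limma on log2(normalized count + 1), with a mean-variance trend, in R 4.3.3 with limma 3.58.1, over the 14703 genes that reached 10 normalized counts in 2 libraries or more, with Benjamini-Hochberg adjustment and a threshold of 0.05. Fold changes are on this log2 scale, which understates those of low genes. Passages of a line were averaged before TFCOs were compared with tissues (2 lines, 2 thyroid tissues, 2 lung tissues, in 1 fit), and late and early TFCOs were compared in 1 fit of all 8 libraries. On simulated counts the fit recovered 181 of 200 changed genes with 3 false calls of 14389 genes in TFCOs against thyroid tissue. In late against early TFCOs it recovered 180 of 200 with 6 false of 14380. Only large changes in well-expressed genes were simulated, with independent noise and otherwise the same mean in every library. Differences between lines, organs and sets of libraries were left out, so these counts do not give the power or error rate in the real data.

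The line number pairs early and late TFCOs, since each line is from 1 mouse (correlation of the deviations from the group means 0.48). The members and lists were chosen with earlier results of these data known. All members are named, with up to 5 genes per other list past the threshold against thyroid tissue or the mean of both tissues, or else the 2 most abundant, and those of the 5 genes with the highest Pearson r to the members' mean course. Some genes under this rule are not reported here. Promoter windows are from RefSeq (GRCm38.p6). Alternatives were the pseudocount, the filter, 2 other scalings, the replicate block, leaving out each library, and voom on reads, which was chosen after seeing the data.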

Additional observations from a re-analysis of the deposited data

How the results depend on the processing

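Over all alternatives and the 10 members, the direction and the side of the threshold held for 119 of 130 values against thyroid tissue, 118 of 130 against lung tissue, 118 of 130 against the mean of both tissues, 133 of 140 for thyroid against lung and 135 of 140 for late against early TFCOs. Quantile normalization turned ATF3 to 0.20 (against the mean of both tissues) and 0.48 (against thyroid tissue), and FOS against lung tissue to -0.060. MAPK3 against thyroid tissue turned to -0.40 under it and to -0.003 with equal totals. Leaving out 1 library at a time turned the sign of small differences: ATF3 against thyroid tissue ran from -0.48 to 0.21, DUSP1 from -0.49 to 0.74, FOS from -0.73 to 0.055 there, from -0.30 to 0.75 against lung tissue and from -0.32 to 0.21 against the mean. For late against early TFCOs it ran from -2.84 to 0.34 for DUSP1, -1.70 to 0.29 for EGR1, -0.49 to 0.12 for FOS and -1.67 to 0.48 for JUN. For thyroid against lung it ran from -0.51 to 0.12 for JUN and -0.95 to 0.50 for JUNB. MAPK3 ran from -0.55 to 0.59 against thyroid tissue and from -0.32 to 0.25 against the mean. No gene had passed in the comparison where it turned.

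Leaving out a library moved the number of genes called from 153 (without lung tissue 2) to 4085 (without thyroid tissue 1) against thyroid tissue, 248 to 6986 against lung tissue, 317 to 6557 against the mean, 58 to 4311 for thyroid against lung (889 with all libraries) and 0 to 2 for late against early TFCOs. The members called ran from 0 to 3, 0 to 4, 0 to 4, 0 to 2 and 0 to 0 in the same order. The cause was not tested. Voom on reads called 285 genes between thyroid and lung. The pseudocount of 10 and quantile normalization each called 1 member there, FOSB. With the line as replicate block 0 genes were called between passages, as without it. Tissue numbers are shared by thyroid and lung in name only (correlation -0.07), and that block called 756 genes and 0 members. The edgeR and DESeq2 alternatives were not run. The precision of each result rests on 2 units per group.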
